A study of Mus musculus with 12 samples.

Results

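Accessible chromatin was described here at 8 genes that supply or handle glycerol 3-phosphate in fat: Pck1, Pck2, Pcx, Gpd1, Gpd2, Aqp7, Pdk2 and Pdk4. The members were all ATAC-seq peaks assigned to these genes in a brown fat table and an inguinal fat table, 76 peaks of 98116 in all. The brown fat table held 47 of them among 58558 peaks, and the inguinal fat table held 29 among 39558. ATAC-seq counts the DNA fragments that a transposase releases from open chromatin, so a peak with more reads is a more accessible region.

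Both tables compared AKO mice with flox mice on the C57BL/6 strain. In AKO mice a Cre driven by the Adiponectin promoter deletes BAF60a (gene Smarcd1), a subunit of the SWI/SNF chromatin remodelling complex, in adipocytes. The flox controls carried the floxed Smarcd1 alleles without the Cre. Brown fat came from 3 flox and 3 AKO mice, 1 mouse per sample, with no age given in the sources used here. Inguinal fat came from mice aged 6 to 8 months that were acclimated to cold, ending with 7 days at 10 °C. The inguinal pads of 6 mice per genotype were pooled and divided into 3 aliquots, so the 3 inguinal samples of a genotype are repeats of 1 pool and their p-values measure only the spread between aliquots. Whole tissue was used, so other cell types that keep BAF60a contributed reads to every sample.

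Glyceroneogenesis builds the glycerol backbone of triglyceride from pyruvate or lactate rather than from glucose. Pyruvate carboxylase (Pcx) makes oxaloacetate, phosphoenolpyruvate carboxykinase (Pck1 in the cytosol, Pck2 in mitochondria) turns it into phosphoenolpyruvate, and Gpd1 reduces dihydroxyacetone phosphate to glycerol 3-phosphate. In adipocytes Pck1 is a well known target of PPARγ and of cAMP signalling. Gpd2 oxidizes glycerol 3-phosphate at the inner mitochondrial membrane, Aqp7 is the channel through which adipocytes release glycerol, and Pdk2 and Pdk4 are kinases that inhibit pyruvate dehydrogenase and so spare pyruvate.

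The Pck1 promoter and 3 sites in Pck1 peaks are shown because the results turn on this locus. Reference sequence is from RefSeq on GRCm38.p6, the build of the peak coordinates. The promoter stretch runs from chr2:173152823-173153047 on the plus strand and ends at the base before the GENCODE start site, with the only match to the cAMP response element in capitals.
Pck1 promoter: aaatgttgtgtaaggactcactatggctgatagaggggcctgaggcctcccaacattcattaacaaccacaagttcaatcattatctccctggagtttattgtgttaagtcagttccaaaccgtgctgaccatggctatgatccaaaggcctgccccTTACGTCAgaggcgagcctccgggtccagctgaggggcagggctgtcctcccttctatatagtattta
The match lies 68 bp before the start site and differs from TGACGTCA at 1 base. Up to 1 mismatch was allowed on either strand, and 12.5% of 32851 mouse promoters of 300 bases held such a match. PPAR response elements were searched as AGGTCANAGGTCA with up to 2 mismatches on either strand. The best match in each Pck1 brown fat peak that had one is in capitals below, read on its own strand with 10 flanking bases.
Start-site peak, minus strand, chr2:173152613-173152645: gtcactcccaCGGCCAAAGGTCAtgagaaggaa
Peak 7040 bp downstream, plus strand, chr2:173159774-173159806: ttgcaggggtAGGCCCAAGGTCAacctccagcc
Peak 18146 bp downstream, minus strand, chr2:173170906-173170938: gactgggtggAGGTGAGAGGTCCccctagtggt
Each match shown had 2 mismatches, and the first lay 425 bp upstream of the start site. The start-site peak held 2 matches with 2 mismatches, of which the one at the lower coordinate is shown. Among brown fat peaks of like width (within 10%), 31.6% held such a match for the start-site peak, 20.5% for the peak at 7040 bp and 12.9% for the peak at 18146 bp. These matches are descriptions of letters, not of factor binding. The peak about 25 kb downstream held no such match, and the central 300 bases of its inguinal form, chr2:173178077-173178376 on the plus strand, are shown since it is the Pck1 peak that was higher in AKO samples in both tissues.
Pck1 downstream peak centre: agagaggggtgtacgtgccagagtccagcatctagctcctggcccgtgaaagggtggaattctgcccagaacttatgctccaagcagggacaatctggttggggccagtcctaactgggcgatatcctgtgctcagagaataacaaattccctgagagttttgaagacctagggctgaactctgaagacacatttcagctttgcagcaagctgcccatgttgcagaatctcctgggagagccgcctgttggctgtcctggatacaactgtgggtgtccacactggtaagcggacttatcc

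Libraries held 6336670 to 27500738 reads in peaks in brown fat and 4066720 to 6691161 in inguinal fat, and a member peak had a median of 325 and 95 reads per sample. Values below are read numbers per peak after scaling by each library's size factor (normalized reads), and the tables were normalized separately. Fold changes are AKO minus flox on the scale of log2(normalized reads + 1), and in brown fat they are adjusted for the first principal component over all peaks (PC1), which held 55.58% of the variance. PC1 scores were −98.2, −41.8 and 14.6 in flox mice and −0.617, 112 and 13.5 in AKO mice. The lowest was in the library with most reads and the highest in the one with fewest. What PC1 reflects was not tested, and adjusting for it can remove part of a genotype difference. For brown fat fold changes without 1 replicate, PC1 was recomputed on the remaining samples. At Smarcd1 itself the start-site peak of brown fat averaged 437 ± 60.5 normalized reads in the flox mice and 442 ± 47.5 in the AKO mice (SD, n = 3). A peak over exon 5 averaged 174 ± 33.9 and 36.2 ± 18.9, a log2 fold change of −2.98 with an adjusted p of 0.269 by limma and 4.04e-11 by DESeq2. Which exons were deleted was not determined here, and inguinal fat had no peak over exon 5. Summed peaks of 5 brown adipocyte marker genes ran from 13860 to 18200 normalized reads over the flox mice and from 9123 to 10460 over the AKO mice. Of their 39 peaks, 20 were lower without overlap and 0 higher, against 8.84% and 8.77% of all peaks. The sum for 6 general adipocyte genes ran from 16250 to 17620 and from 11580 to 16200. The sum for 5 preadipocyte and fibroblast genes ran from 1837 to 1879 and from 1949 to 2098. Of 6 macrophage and leukocyte genes 2 had a peak, with a sum of 229 to 301 in flox and 221 to 282 in AKO mice. Ptprc, Cd68, Csf1r and Cd3e had none. Sums for endothelial, skeletal muscle, mammary epithelium and hepatocyte genes overlapped between genotypes. In bulk tissue fewer cells of a type and less open chromatin per cell cannot be told apart, and the part of these lists in the results was not tested.

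The Pck1 start-site peak was less accessible in AKO brown fat. Pck1 (chr2:173153048-173159273, plus strand, 10 exons) had 4 brown fat peaks, and the start-site peak (chr2:173151769-173154922) reached from the upstream sequence into intron 4. It held 4698, 4086 and 3621 normalized reads in flox mice and 1973, 1551 and 1325 in AKO mice. The highest AKO value stayed under the lowest flox value. The log2 fold change was −1.19 ± 0.24 (SE), with a Benjamini-Hochberg adjusted p of 0.431 by limma over all peaks. DESeq2 with the same covariate gave an adjusted p of 1.27e-07 and edgeR's quasi-likelihood test gave 0.00592. The peak carries both the cAMP response element match and the first PPAR response element match printed above.

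A second large Pck1 peak just past the gene's end moved in the same direction. It lies 7040 bp from the start site (chr2:173159380-173160797) and held 2232, 1533 and 2227 normalized reads in flox mice and 1178, 699 and 1008 in AKO mice. The groups did not overlap. The log2 fold change was −0.78 ± 0.29 (adjusted p = 0.522 by limma). It was −0.22 without flox replicate 3, with PC1 recomputed on the remaining samples, and −1.07 with all samples and no PC1 covariate.

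The 2 remaining Pck1 peaks of brown fat were higher in AKO mice. The peak 18146 bp downstream (chr2:173170860-173171528) held 82.0, 85.0 and 99.6 normalized reads in flox mice and 138, 170 and 104 in AKO mice. Its log2 fold change was 0.31 ± 0.22 (adjusted p = 0.711) and was 0.60 without the PC1 covariate and 0.11 without AKO replicate 1. The peak 25121 bp downstream (chr2:173177867-173178471) held 233, 259 and 226 in flox mice and 366, 290 and 343 in AKO mice. Its log2 fold change was 0.61 ± 0.19 (adjusted p = 0.482 by limma). In neither peak did the groups overlap.

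The inguinal Pck1 start-site peak did not separate the genotypes. The peak (chr2:173151781-173153469) held 553, 340 and 468 normalized reads in flox aliquots and 344, 398 and 334 in AKO aliquots. One flox aliquot lay among the AKO values. The log2 fold change was −0.32 ± 0.20 with an adjusted p of 0.502 by limma and 0.0466 by edgeR, and it was −0.16 without flox replicate 1. The peak at 6929 bp held 529, 406 and 654 in flox and 443, 507 and 402 in AKO aliquots, again with overlap (log2 fold change −0.21 ± 0.20, adjusted p = 0.66).

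The peak about 25 kb downstream was higher in AKO inguinal fat, as it was in AKO brown fat. In inguinal fat it lay 25179 bp from the start site (chr2:173178063-173178392), inside the brown fat peak. It held 42.1, 31.1 and 28.4 normalized reads in flox aliquots and 50.7, 55.9 and 65.2 in AKO aliquots, without overlap. The log2 fold change was 0.75 ± 0.19 (adjusted p = 0.175 by limma). Counts at this peak were low, and leave-one-out values ran from 0.64 to 0.92.

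**Figure D1:**
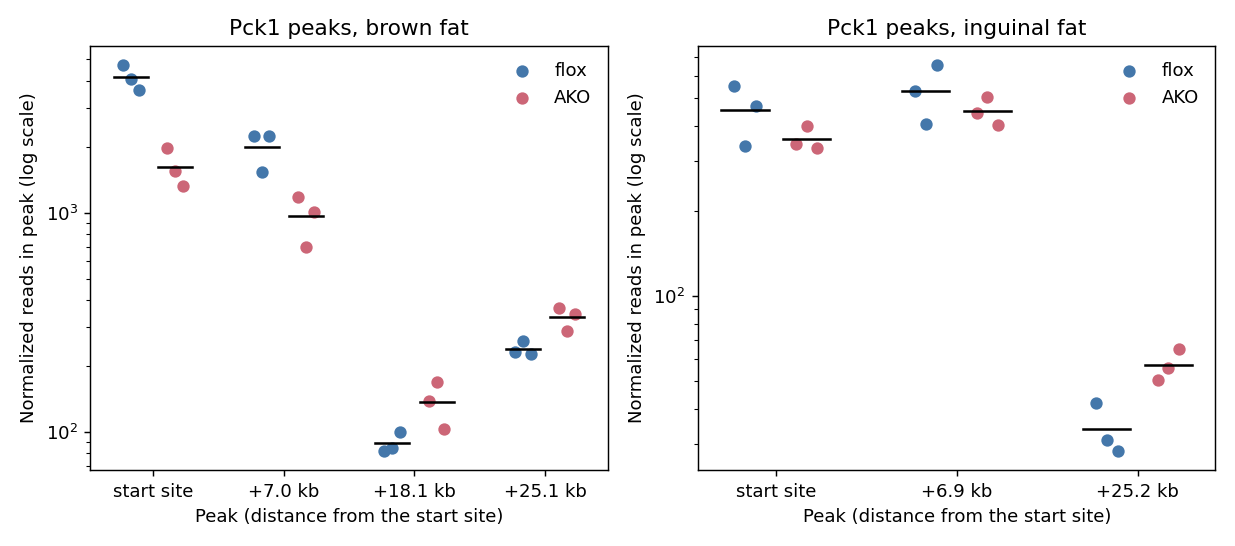
Normalized reads (log scale) in each Pck1 peak by distance from the start site, for brown fat (left) and inguinal fat (right); points are the 3 samples of each genotype and bars their means. In brown fat the start-site and 7.0 kb peaks lie lower in AKO and the 18.1 and 25.1 kb peaks higher, while in inguinal fat only the 25.2 kb peak separates the genotypes.

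Per kilobase of peak, the flox start-site peak of Pck1 was at rank 3 of 9 start-site peaks in brown fat and at rank 8 of 9 in inguinal fat. Its mean in brown fat was 1311 normalized reads per kb in flox and 512 in AKO mice. Pdk4 at 1741 and Gpd1 at 1420 stood above it in flox mice, and the ranges of Gpd1 (1259 to 1547) and Pck1 (1148 to 1490) overlapped. In inguinal fat Pck1 had 269 normalized reads per kb in flox and 212 in AKO aliquots, and its flox range of 201 to 328 held the flox ranges of Aqp7, Pdk2 and Gpd1.

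**Figure D2:**
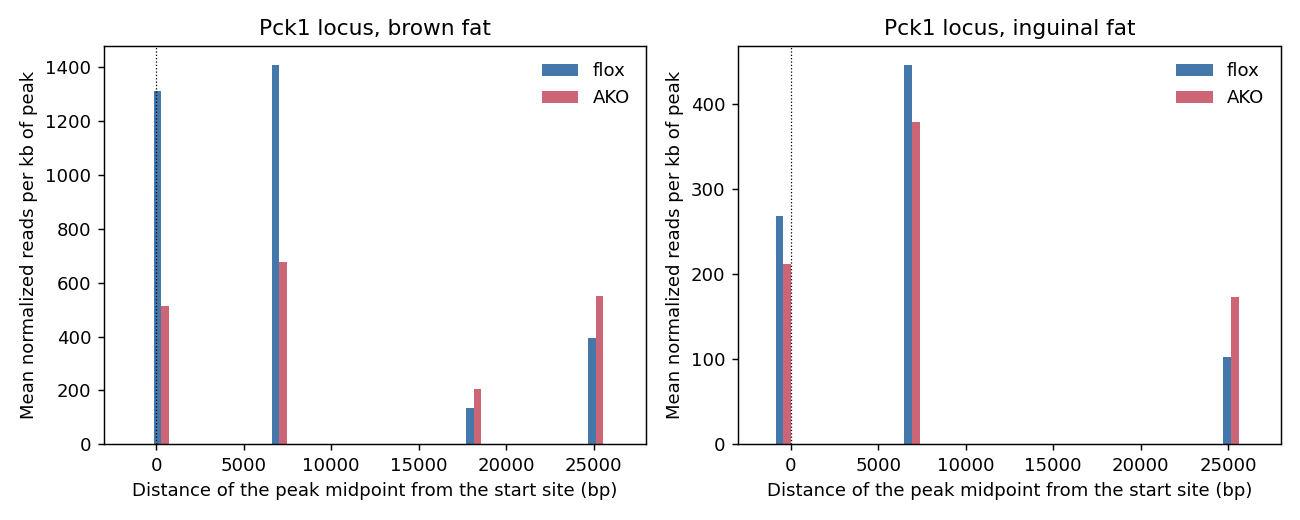
Mean normalized reads per kb of peak (bars, n = 3 samples per genotype) against the distance of the peak midpoint from the Pck1 start site (dotted line), for brown fat (left) and inguinal fat (right). In brown fat the start-site peak falls from 1311 to 512 per kb between flox and AKO, and the bars at about 25 kb are higher in AKO in both tissues.

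Start-site and distal Pck1 peaks were then contrasted within each sample, as the log2 value of the start-site peak minus the mean log2 value of the other Pck1 peaks. Unlike the brown fat fold changes, this contrast carries no PC1 adjustment. In brown fat this difference was 3.74, 3.65 and 3.29 in flox mice and 2.33, 2.25 and 2.00 in AKO mice. All AKO mice were lower, by a mean of −1.37. The two-sided exact permutation test gave p = 0.1, the smallest value that 3 against 3 samples allow, and 0.35 after adjustment over 7 genes. The inguinal difference was 1.88, 1.58 and 1.76 in flox and 1.19, 1.23 and 1.03 in AKO aliquots, a change of −0.59 (exact permutation p = 0.1, adjusted p = 0.14).

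The contrast rested on the 2 distant peaks rather than on the peak at 7 kb. Against the peak at 7040 bp alone, the start-site peak of brown fat changed by −0.30 (exact permutation p = 0.5). Against the peaks at 18146 and 25121 bp it changed by −1.96 and −1.84 (each exact permutation p = 0.1, adjusted p = 0.167 over 5 pairs). In inguinal fat the change was −0.10 against the peak at 6929 bp (exact permutation p = 0.7) and −1.07 against the peak at 25179 bp (exact permutation p = 0.1). With the other peaks summed, so that the largest dominates, the contrast was −0.66 in brown fat and −0.18 in inguinal fat (exact permutation p = 0.1 and 0.4). The start-site peak held 64.0 ± 4.99% of all Pck1 reads of flox mice and 53.0 ± 4.87% of those of AKO mice (SD, n = 3, exact permutation p = 0.1). In inguinal fat it held 44.6 ± 4.31% and 41.4 ± 0.310% (exact permutation p = 0.4).

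Across all 47 member peaks of brown fat, more were lower than higher in AKO mice. None passed an adjusted p of 0.1 by limma, as with all peaks (0.0%). DESeq2 with PC1 called 1 lower, the Pck1 start-site peak, and 0 higher, against 0.217% and 0.0803% of all peaks, and edgeR called the same peak (0.114% of all peaks lower and 0.029% higher). At an unadjusted p under 0.05, 4 were lower (8.51%, against 5.59% of all peaks) and 1 was higher (2.13%, against 3.46%). The 4 were the Pck1 start-site and 7040 bp peaks and a pair in Gpd2 intron 1. Groups did not overlap in 13 lower peaks (27.7%, against 8.84%) and in 2 higher peaks (4.26%, against 8.77%), the latter both of Pck1. The median log2 fold change was −0.09 over the members and 0.01 over all peaks. Of the 9 start-site peaks, 4 had a negative fold change with PC1 as a covariate and 9 without it, so the direction at 5 of them rests on that choice. Without PC1, DESeq2 called 4 member peaks lower, which were the Pck1 start-site and 7040 bp peaks, the Gpd1 start-site peak and 1 Gpd2 intron 1 peak. Over all peaks that fit called 0.517% lower and 0.512% higher.

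The balance of the 29 inguinal member peaks ran the other way. None passed by limma (0.0% of all peaks), while 6 had an unadjusted p under 0.05 and were higher (20.7%, against 7.61% of all peaks) and 0 were lower (against 7.42%). Groups did not overlap in 6 higher peaks (20.7%, against 10.6%) and 1 lower peak (3.45%, against 10.3%). DESeq2 called 1 higher (0.493% of all peaks) and 0 lower (0.569%), and edgeR called 3 higher and 1 lower (2.15% and 2.52% of all peaks). The median log2 fold change was 0.11 over the members and −0.00 over all peaks. Of 26 pairs of overlapping brown and inguinal member peaks, 8 were negative in brown and positive in inguinal fat, 3 the reverse, 5 negative in both and 10 positive in both. Brown fat signs were taken with PC1 as a covariate and inguinal signs without one, so this split depends on the covariate. With PC1, 27 of the 47 brown fat member peaks were negative, and without it 38 were. Over all 58558 brown fat peaks these numbers were 28733 and 30247. Whether the tissues differ was not tested. Some marker sums separated the genotypes in inguinal fat. Brown adipocyte genes ran from 1048 to 1102 normalized reads in flox and from 1136 to 1254 in AKO aliquots. Endothelial genes ran from 766 to 855 and from 671 to 740. Leukocyte genes, with 5 peaks, ran from 343 to 387 and from 251 to 332. Skeletal muscle genes, with 2 peaks, ran from 781 to 971 and from 740 to 775. Sums overlapped for general adipocyte genes (2732 to 3386 and 2623 to 2970) and for preadipocyte and fibroblast genes (1481 to 1582 and 1458 to 1619). They also overlapped for mammary epithelium and hepatocyte genes. The part of these lists in the member values was not tested.

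**Figure D3:**
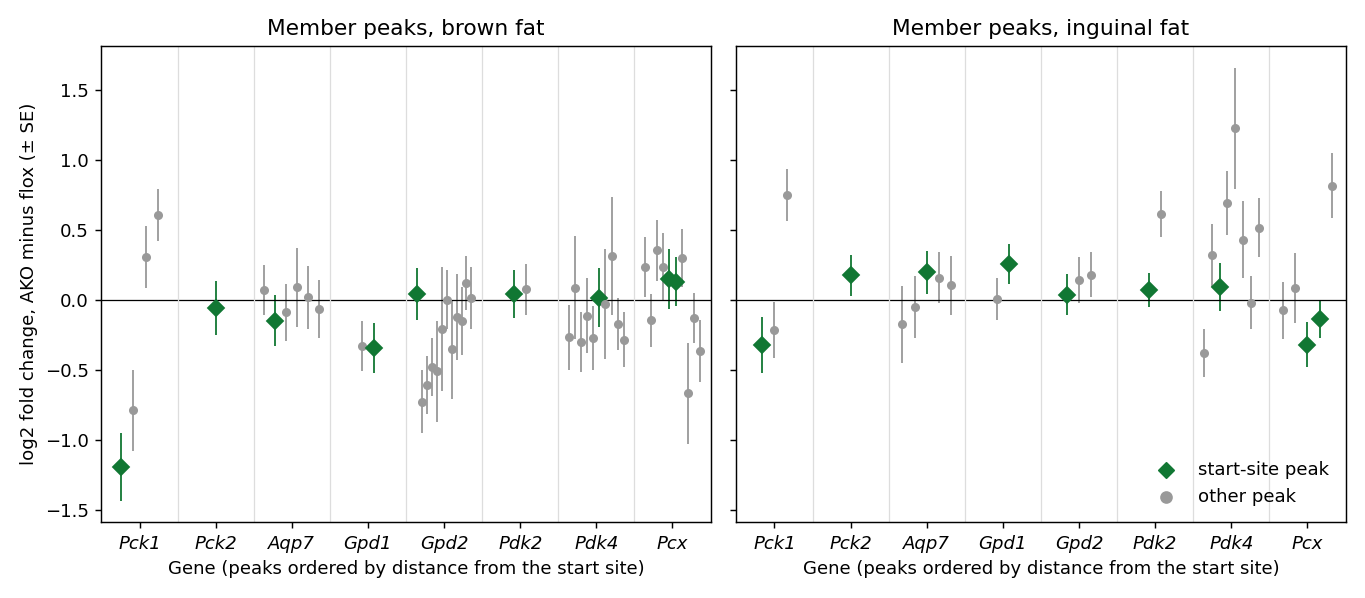
log2 fold change, AKO minus flox, of every member peak with its standard error, by gene, in brown fat (left, PC1 covariate) and inguinal fat (right); diamonds are start-site peaks and circles other peaks. The Pck1 start-site peak of brown fat, at −1.19, lies furthest below 0 of the member peaks plotted, and in inguinal fat the higher values are circles of Pck1, Pdk2, Pdk4 and Pcx.

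The other enzymes of the route from pyruvate to glycerol 3-phosphate had smaller start-site changes than Pck1 in brown fat. Pck2, with a single peak at its start site (chr14:55540077-55541062), held 487, 588 and 533 normalized reads in flox mice and 527, 477 and 524 in AKO mice, and the groups overlapped (log2 fold change −0.06 ± 0.19, adjusted p = 0.95 by limma). In inguinal fat it held 337, 335 and 287 in flox and 405, 349 and 333 in AKO aliquots, also with overlap (0.18 ± 0.14). The difference between Pck1 and Pck2 was not tested.

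Gpd1 was lower at both of its brown fat peaks. Its start-site peak (chr15:99715919-99717966) held 3168, 2977 and 2578 normalized reads in flox mice and 2246, 1626 and 1918 in AKO mice. The groups did not overlap, with a log2 fold change of −0.34 ± 0.18 (adjusted p = 0.615 by limma) and −0.60 without PC1. The peak 3361 bp upstream held 1042, 1171 and 1041 in flox and 885, 842 and 840 in AKO mice (−0.32 ± 0.18). That peak lies within Smarcd1, the deleted gene, which is the neighbour of Gpd1 on chromosome 15. In inguinal fat the start-site peak held 108, 106 and 108 in flox and 128, 147 and 113 in AKO aliquots, all AKO higher (0.26 ± 0.14, adjusted p = 0.43). The peak 1376 bp upstream overlapped between genotypes, with 107, 106 and 122 in flox and 128, 113 and 97.3 in AKO aliquots.

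Pcx had 2 start-site peaks, for its alternative first exons, and both overlapped between genotypes in both tissues. The upstream one (chr19:4509945-4511800) held 1997, 1589 and 1444 normalized reads in flox mice and 1578, 1064 and 1571 in AKO mice (0.13 ± 0.18, and −0.27 without PC1). The other one (chr19:4593739-4594461) held 456, 303 and 330 in flox mice and 371, 278 and 324 in AKO mice (0.15 ± 0.21, and −0.15 without PC1). In inguinal fat the upstream one held 768, 692 and 852 in flox and 701, 726 and 675 in AKO aliquots (−0.13 ± 0.14), and the other one held 177, 130 and 160 and then 114, 126 and 133 (−0.32 ± 0.16). The intron 2 peak 26272 bp from the start site was the Pcx exception in inguinal fat. It held 52.8, 80.1 and 52.5 in flox and 133, 111 and 84.5 in AKO aliquots, all AKO higher, with a log2 fold change of 0.82 ± 0.23 (adjusted p = 0.196 by limma, 0.0705 by DESeq2 and 0.0121 by edgeR). Its brown fat counterpart at 26298 bp held 450, 385 and 383 in flox and 333, 288 and 360 in AKO mice, all AKO lower (−0.13 ± 0.18). In brown fat the smallest p among the other Pcx peaks was at 14344 bp, also in intron 2, with 80.0, 93.1 and 47.9 in flox and 35.1, 50.2 and 42.2 in AKO mice (−0.66 ± 0.36, adjusted p = 0.623 by limma). This value was −0.34 without AKO replicate 1 and −1.44 without flox replicate 3. The centre of the intron 2 peak that was higher in AKO inguinal fat (chr19:4536608-4536907, plus strand) held no match to the 3 motifs searched, which were these 2 and the TATA box TATAAA.
Pcx intron peak centre: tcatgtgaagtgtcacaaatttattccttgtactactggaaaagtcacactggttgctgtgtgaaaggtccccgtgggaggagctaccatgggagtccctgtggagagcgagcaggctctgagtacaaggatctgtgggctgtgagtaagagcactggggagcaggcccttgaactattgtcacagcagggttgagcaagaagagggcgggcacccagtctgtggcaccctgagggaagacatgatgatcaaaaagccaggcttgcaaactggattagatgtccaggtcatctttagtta

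Gpd2 showed lower peaks in its first intron and not at its start site in brown fat. The start-site peak (chr2:57237731-57238749) held 778, 717 and 592 normalized reads in flox and 633, 614 and 668 in AKO mice, with overlap (0.05 ± 0.19). The intron 1 peak at 12616 bp (chr2:57250875-57251121) held 116, 153 and 123 in flox and 87.6, 96.6 and 73.9 in AKO mice (−0.72 ± 0.22, adjusted p = 0.482 by limma). The intron 1 peak at 14373 bp (chr2:57252525-57252986) held 498, 439 and 423 in flox and 319, 270 and 242 in AKO mice (−0.60 ± 0.21, adjusted p = 0.505 by limma). The one at 17635 bp (chr2:57255185-57256849) held 689, 734 and 704 in flox and 585, 514 and 441 in AKO mice (−0.47 ± 0.21, adjusted p = 0.561 by limma). In all 3 the genotypes did not overlap, and none of the 3 had an overlapping inguinal peak. Over all brown fat peaks, 8.84% were lower without overlap. The other 8 Gpd2 peaks of brown fat overlapped between genotypes. In inguinal fat all 3 Gpd2 peaks overlapped, with 229, 271 and 303 in flox and 286, 266 and 270 in AKO aliquots at the start site (0.04 ± 0.15) and 59.2, 75.6 and 81.8 and then 85.3, 81.1 and 78.1 at 215704 bp (0.18 ± 0.16).

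Aqp7, the glycerol channel, was slightly lower at its start site in AKO brown fat. The peak (chr4:41046624-41048778) held 1923, 1751 and 1775 normalized reads in flox and 1646, 1232 and 1469 in AKO mice without overlap, and the log2 fold change was −0.15 ± 0.18 with PC1 (adjusted p = 0.834 by limma) and −0.33 without. The other 5 Aqp7 peaks overlapped, the one with the smallest p, 17275 bp upstream, holding 30.8, 42.1 and 55.6 in flox and 54.6, 83.1 and 56.6 in AKO mice (0.07 ± 0.18, and 0.60 without PC1). In inguinal fat all 5 Aqp7 peaks overlapped. The start-site peak held 190, 169 and 179 in flox and 173, 230 and 220 in AKO aliquots (0.20 ± 0.15), and the intron 3 peak at 4341 bp held 105, 70.0 and 77.5 and then 92.2, 102 and 85.5 (0.16 ± 0.18).

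The kinase genes Pdk4 and Pdk2 kept overlapping start-site peaks in both tissues. Pdk4 had the most accessible member start site per kb in brown fat, with 3489, 2937 and 2704 normalized reads in flox and 3028, 1613 and 2339 in AKO mice (chr6:5495857-5497604). Its log2 fold change was 0.02 ± 0.21 with PC1 and −0.43 without. Of the other 9 Pdk4 peaks of brown fat, 3 were lower without overlap, as were 8.84% of all peaks. The smallest p among the 9 was at 53311 bp downstream, with 256, 307 and 277 in flox and 223, 216 and 249 in AKO mice (−0.28 ± 0.20, adjusted p = 0.702 by limma). In inguinal fat the Pdk4 start-site peak held 480, 329 and 430 in flox and 407, 457 and 446 in AKO aliquots (0.10 ± 0.17). A pair of small Pdk4 peaks was higher there without overlap, as were 10.6% of all inguinal peaks. The one at 13943 bp held 28.5, 10.01 and 35.3 in flox and 49.6, 42.2 and 68.4 in AKO aliquots (1.23 ± 0.43, adjusted p = 0.257 by limma and 0.033 by edgeR), and it was 0.70 without flox replicate 2. The one at 11730 bp, in the last exon, held 14.3, 24.5 and 20.7 in flox and 35.7, 35.4 and 25.7 in AKO aliquots (0.69 ± 0.23, adjusted p = 0.233 by limma). Another peak, at 54824 bp, had an unadjusted p under 0.05 with overlapping groups (0.52 ± 0.21, adjusted p = 0.31 by limma). The peak 13461 bp upstream was the 1 inguinal member peak that was lower without overlap (−0.37 ± 0.17, adjusted p = 0.358 by limma).

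Pdk2 had a start-site peak and an intron 2 peak in each tissue. The brown fat start-site peak (chr11:95040244-95042424) held 1869, 1497 and 1297 normalized reads in flox and 1358, 873 and 1336 in AKO mice (0.04 ± 0.17, and −0.40 without PC1). The intron 2 peak at 2134 bp held 482, 409 and 343 in flox and 363, 311 and 393 in AKO mice (0.08 ± 0.18). The inguinal start-site peak held 529, 550 and 489 in flox and 535, 557 and 557 in AKO aliquots (0.07 ± 0.12). The intron 2 peak at 2077 bp (chr11:95039139-95039414) held 84.8, 71.2 and 60.3 in flox and 110, 102 and 120 in AKO aliquots, all AKO higher (0.62 ± 0.16, adjusted p = 0.185 by limma and 0.0615 by edgeR). This peak held a PPAR response element match with 1 mismatch, as 5.68% of inguinal peaks of like width did with up to 2.

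The contrast of start-site against other peaks was less marked in the other genes of brown fat than in Pck1, in values though not by a test between genes. It was −0.40 for Aqp7 (exact permutation p = 0.1), −0.26 for Gpd1 and −0.20 for Pdk2 (exact permutation p = 0.2 each), and between −0.01 and 0.07 for Gpd2, Pdk4 and Pcx. These values carry no PC1 adjustment. Gpd1 and Pdk2 had 1 other peak each. With PC1, fold changes of the start-site and other peak were −0.34 and −0.32 for Gpd1 and 0.04 and 0.08 for Pdk2. In inguinal fat the contrast was −0.54 for Pdk2, −0.50 for Pcx, −0.31 for Pdk4 and −0.12 for Gpd2, each with an exact permutation p of 0.1 and an adjusted p of 0.14, as for Pck1. It was 0.19 for Aqp7 and 0.25 for Gpd1, with overlapping aliquots. Pck2 had 1 peak and gave no contrast.

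**Figure D4:**
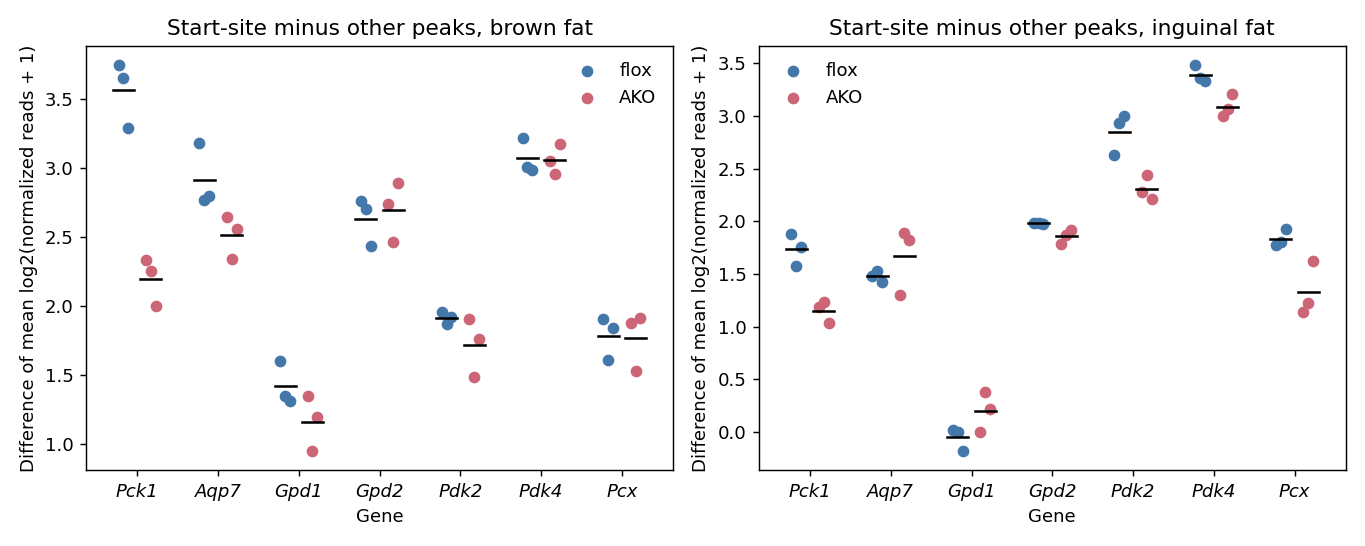
Mean log2(normalized reads + 1) of the start-site peaks minus the mean over the gene's other peaks, per sample, for the 7 genes with both kinds of peak, in brown fat (left) and inguinal fat (right); points are samples and bars are means of 3. In brown fat the Pck1 values separate by −1.37 between flox and AKO, and in inguinal fat 5 of the 7 genes lie lower in all AKO aliquots.

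PPAR response element matches were found in 14 of the 47 brown fat member peaks, and 11.9% of all brown fat peaks held one. In inguinal fat 10 of 29 member peaks held one, against 8.74% of all peaks. Besides the Pck1 peaks, the start-site peaks of Gpd1, with 1 mismatch, Aqp7 and the downstream Pcx start site held a match in brown fat. Of promoters of 300 bases, 3.86% held a match. The table of promoters held 11 promoters of 7 members and none of Gpd1. Both Aqp7 promoters held a match, and the Pck1 promoter held none. Wider peaks hold more matches, so the shares of all peaks are not matched on width.

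Other genes of the pathway were taken from 5 lists with 50 genes, of which 44 had peaks in brown fat and 42 in inguinal fat. Of 305 brown fat peaks, limma called 0 at an adjusted p of 0.1, DESeq2 called 1 lower, and at an unadjusted p under 0.05 41 were lower (13.4%, against 5.59% of all peaks) and 8 were higher (2.62%, against 3.46%). DESeq2 called 0.217% of all peaks lower. Most of these lower peaks belonged to 10 regulators of Pck1, such as the glucocorticoid receptor Nr3c1 and the coactivator Ppargc1a, with 33 of 150 peaks lower (22.0%, against 5.59% of all peaks) and 3 higher (2.0%, against 3.46%). Their median log2 fold change was −0.20. An intron 2 peak of Nr3c1 held 37.1, 52.5 and 56.9 normalized reads in flox and 21.7, 27.0 and 26.9 in AKO mice (−1.20 ± 0.21, adjusted p = 0.417 by limma, and −0.91 without PC1). An intron 2 peak of Ppargc1a held 50.2, 73.9 and 62.1 in flox and 27.8, 67.6 and 28.8 in AKO mice, where the second AKO mouse overlapped the flox range (−1.30 ± 0.30, and −0.68 without PC1). Both peaks had few reads, 14 to 28 per AKO mouse for Nr3c1 and 27 to 35 for Ppargc1a, and DESeq2 gave neither an adjusted p. The peak that DESeq2 called was another one of these regulators. The remaining lists were closer to balance, with a median of −0.07 for 31 peaks of glycerol 3-phosphate handling, 0.00 for 79 of pyruvate and malate shuttles, −0.09 for 32 of pyruvate dehydrogenase and −0.01 for 13 of the gluconeogenic exit. Shuttle peaks moved both ways. An intron 3 peak of Me1, the cytosolic malic enzyme, held 42.9, 31.8 and 40.1 in flox and 59.8, 48.3 and 73.9 in AKO mice, all AKO higher (0.85 ± 0.24, adjusted p = 0.474 by limma). A peak 6301 bp upstream of Slc25a1, the mitochondrial citrate carrier, held 204, 188 and 127 in flox and 265, 141 and 187 in AKO mice with overlap (0.70 ± 0.22, and 0.17 without PC1). Ldha, lactate dehydrogenase A, had a peak 6518 bp upstream with 1081, 961 and 1058 in flox and 738, 661 and 712 in AKO mice (−0.48 ± 0.18, adjusted p = 0.522 by limma).

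In inguinal fat 174 peaks of these lists included 14 lower and 18 higher at an unadjusted p under 0.05 (8.05% and 10.3%, against 7.42% and 7.61% of all peaks), so the lower share was near that of all peaks. Limma called 0 and DESeq2 called 4 lower (0.569% of all peaks). The shuttles held 3 of the 4. Slc25a10, the mitochondrial dicarboxylate carrier, had a peak 2319 bp upstream with 121, 108 and 111 normalized reads in flox and 61.1, 54.8 and 61.0 in AKO aliquots (−0.93 ± 0.13, adjusted p = 0.149 by limma and 0.00888 by DESeq2). Me1 had another intron 3 peak with 36.4, 35.6 and 37.0 in flox and 20.8, 20.6 and 23.5 in AKO aliquots (−0.73 ± 0.13, adjusted p = 0.149 by limma). Of 78 inguinal peaks of the Pck1 regulators, 4 were lower (5.13%, against 7.42% of all peaks) and 9 higher (11.5%, against 7.61%) at that threshold. Groups did not overlap in 9 lower peaks (11.5%, against 10.3%) and 13 higher peaks (16.7%, against 10.6%). Their median log2 fold change was −0.00.

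Promoter peaks most like the Pck1 start-site peak across the 6 brown fat samples were found by Pearson correlation among 11061 peaks within 1 kb of a start site. All 6 samples share the genotype difference, so r is a description. The 5 highest were Abcb9 (r = 0.993), Fmo1 (0.987), Ccdc14 (0.986), Parp11 (0.983) and Ucp1 (0.982), and 120 peaks had r of at least 0.9. Ucp1, the uncoupling protein of brown fat, held 1556, 1247 and 816 normalized reads in flox and 363, 315 and 285 in AKO mice at that peak (−1.52 on the log2 scale), without overlap.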

How the data were processed

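ATAC-seq reads of frozen brown and inguinal fat were trimmed, aligned to mm10 with BWA 0.7.17-r1188, filtered to autosomal non-duplicate reads and called as peaks with MACS2 by the authors, who kept peaks found in at least 2 replicates. The deposited signal is a read number per peak that the authors scaled by size factors, one table per tissue; multiplying by the size factor gave whole reads for 100% of values (largest deviation 3.3e-06). Columns of the authors' fold changes and p-values were not used. Reads of 38 bases were sequenced for brown fat. Sequenced read length and sequencer differed for inguinal fat, whose reads the authors cut to 38 bases before processing them.

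Peaks were taken by the gene name in the tables. A start-site peak contains the start of a protein-coding transcript in GENCODE M21. The main test was limma 3.58.1 on log2(normalized reads + 1) over all peaks, with a PC1 covariate for brown fat only, Benjamini-Hochberg adjustment and a threshold of 0.1. DESeq2 1.42.0 and edgeR 4.0.16 on the recovered reads were alternatives. The start-site contrast used two-sided exact permutation over 20 splits, with no covariate. Scripts were tested on simulated data. Values are given in every sample for each start-site peak, each Pck1 peak and, per gene and tissue, the other peak with the smallest p; further peaks are those with p under 0.05 or without overlap, and Ldha, Nr3c1, Ppargc1a, Slc25a1, Slc25a10 and Me1 are among the 3 smallest p of their lists. The members and lists were chosen with earlier results of these data known. Counting error only is covered by read depth, and 3 samples per group limit every test.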

Additional observations from a re-analysis of the deposited data

Results flagged for a closer look

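In 2 of 26 pairs of overlapping brown and inguinal member peaks the genotypes separated completely in both tissues but in opposite directions. Over all peaks, 8.84% were lower without overlap in brown fat and 10.6% higher in inguinal fat. The share of such pairs among all peaks was not determined. The difference between the tissues was not tested, and brown fat came from single mice while inguinal fat came from pools. The Gpd1 start-site peak had a log2 fold change of −0.34 in brown fat, all AKO mice lower, and 0.26 in inguinal fat, all AKO aliquots higher. The same brown fat peak also spans the inguinal peak 1376 bp upstream, where the fold change was 0.01 and the genotypes overlapped. The intron 2 peak of Pcx 26298 bp from its first start site had −0.13 in brown fat and 0.82 in inguinal fat. Neither passed an adjusted p of 0.1 by limma in either tissue, and the inguinal Pcx peak had an adjusted p of 0.0705 by DESeq2 and 0.0121 by edgeR.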

How the results depend on the processing

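The count of member peaks called stayed 0 by limma without a variance trend under every scaling, pseudocount, filter, threshold and left-out replicate tried. In brown fat it was 1 by DESeq2, 1 by edgeR with TMM, 1 by limma-trend and 4 by DESeq2 without PC1, and in inguinal fat 1 by DESeq2, 4 by edgeR and 3 by limma-trend. edgeR, limma-trend and DESeq2 without PC1 were chosen after seeing the data. The brown fat Pck1 start-site peak passed with −1.16 by DESeq2, −1.16 by edgeR, −1.19 by limma-trend and −1.36 by DESeq2 without PC1, and leave-one-out values ran from −1.43 to −0.92. The inguinal one passed at −0.35 by edgeR, with leave-one-out values of −0.51 to −0.16. The Pck1 contrast ran from −1.50 to −1.27 in brown fat and from −0.67 to −0.52 in inguinal fat when 1 replicate was left out.

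Directions of small changes rested on the covariate. Without PC1, by limma and by DESeq2, the brown fat start-site peaks became −0.12 and −0.13 (Gpd2), −0.27 and −0.25 (upstream Pcx), −0.15 and −0.16 (other Pcx), −0.40 and −0.39 (Pdk2) and −0.43 and −0.39 (Pdk4), and the Pdk2 intron 2 peak −0.20 and −0.21. With cyclic loess Gpd2, Pdk2 and Pdk4 start sites were −0.0145, −0.0145 and −0.0429, and scaling to total reads in peaks gave Pdk4 −0.0206. In inguinal fat PC1 separates the pools completely and so cannot be told apart from genotype. With it as a covariate the values were 0.96 (Pck1 start site), −0.57 and −1.51 (Gpd1 start site and 1376 bp upstream), −1.50 and −1.86 (Gpd2 start site and 215704 bp), −1.97 and 1.29 (Pcx at 26272 bp and the other start site) and −3.37, −1.32 and 0.61 (Pdk4 at 11730, 54824 and 13461 bp). When 1 brown fat replicate was left out, PC1 was recomputed, so both the samples and the covariate changed. Leaving out 1 replicate changed the sign at 19 of 47 brown fat member peaks, the largest of them −0.35 (Gpd2 at 89207 bp), and at 8 of 29 inguinal ones. Among those with values in every sample these were brown fat Pdk4 start site −0.20 to 0.24, Pck2 −0.10 to 0.0137, Aqp7 −0.25 to 0.0012, Gpd2 −0.12 to 0.15 and Pdk2 intron 2 −0.0102 to 0.19, and inguinal Gpd1 1376 bp upstream −0.0856 to 0.11, Gpd2 −0.067 to 0.13 and Pdk4 −0.0582 to 0.21.

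Replicate numbers did not pair the samples (correlations of deviations 0.494, 0.063 and −0.236 in brown fat and −0.039, −0.05 and −0.057 in inguinal fat). With the replicate block the called count stayed 0 in both tissues, the Pck1 start-site peak was −1.41 and −0.32, the contrast was −1.37 and −0.59, and in brown fat Pck2 became 0.0483, the other Pcx start site −0.075 and Pdk4 −0.11. The cause of these changes was not tested. Low counts limit the small distal inguinal peaks.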
